A study of Drosophila melanogaster with 2 samples.

Results

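The genes that lay out the body axis of the fly embryo, 35 segmentation and homeotic genes out of 13968 protein-coding genes on the chromosome arms, were examined for binding of Pox neuro (Poxn) in whole Drosophila melanogaster embryos. Genes were taken from a fixed list of names and located in an Ensembl annotation of the BDGP6 assembly, the assembly that is called dm6 in the files. The list held maternal factors (bcd, cad), gap genes (hb, Kr, kni, gt, tll, hkb), pair-rule genes (eve, ftz, h, run, odd, slp1, slp2, opa) and segment polarity genes (en, inv, wg, hh, ptc, ci, nkd). It also held fkh, the Hox genes (lab, pb, Dfd, Scr, Antp, Ubx, abd-A, Abd-B), the Hox cofactors exd and hth, and tsh. A symbol match was found for 34 members, and h was matched through its renamed symbol, hry.

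Poxn is a transcription factor with a paired domain, known for its role in the chemosensory bristles. Embryos of the strain Poxn-GFP, which carries an insertion that targets Poxn and makes a Poxn-eGFP fusion protein, were collected from 0 to 24 h of development. Chromatin of whole embryos was sonicated and precipitated, with an anti-GFP antibody per the sample descriptions and with Poxn named in the antibody field. There were 2 biological replicates of this 1 group, and the control experiment that the labels name was not analysed here. The labels do not say how many embryos were pooled. In such material, binding in few cells and weak binding in many cells cannot be told apart.

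Segmentation genes act as a cascade. Maternal gradients set the domains of gap genes, gap proteins place the stripes of pair-rule genes, and pair-rule proteins place the segment polarity genes, which hold the segment borders through Wnt and Hedgehog signalling. Hox genes then give each segment its identity together with the cofactors exd and hth. Many of these genes are read from enhancers far from their promoters, and the Hox genes lie in long complexes. The early stages of the cascade take up a small part of the period over which these embryos were collected.

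The files give, for the pair of replicates and for each replicate, a ranked list of candidate sites and a thresholded list drawn from it. The pair's thresholded list, the main list, held 1488 peaks of 146020 candidates, and 1449 of its peaks lay on the arms. The replicates' own thresholded lists held 800 (replicate 1) and 979 peaks (replicate 2). The signal is the authors' enrichment value. Its size is not compared between lists, and where a site is followed across lists its percentile, the share of that ranked list below it, is the value to compare. It had a median of 81.2 over main-list peaks and 16.8 over candidates. The irreproducible discovery rate (IDR) measures how well a site's rank repeats between the lists compared, and no peak of a thresholded list had a −log10 global IDR below 2. The sources used here give no library depth.

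Of the 35 genes, 5 had a main-list peak. The peaks lay upstream of slp2, upstream of h, in an intron of hth, and at the promoters of fkh and nkd. A 6th locus, the promoter of bcd, the gene of the maternal anterior homeodomain morphogen, had a peak in the list of replicate 2 only. The other 29 members had no peak in any of the 4 thresholded lists by any assignment. Over all protein-coding genes, no single list and assignment gave a share with a peak above 8.23%. Their share over all lists and assignments together was not computed, so the 29 has no background beside it. No other gene of the annotation contained the summit of any of the 5 main-list peaks.

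The sequences at these 6 sites are shown because all results on bound members rest on them. Each is the plus strand of dm6, 5′ to 3′, from the RefSeq genome of the same release, over the summit base and 100 bp to either side. The searched words that occur are in capitals. They were the core of Pax2/5/8 sites (GTCACGC), the GAGA factor word (GAGAG), the DREF and BEAF-32 element (TATCGATA), the Zelda word (CAGGTAG), Motif 1 (GGTCACAC), the E-box (CACGTG) and a homeodomain core (TAATTA), each on both strands.
slp2, chr2L:3832435-3832635: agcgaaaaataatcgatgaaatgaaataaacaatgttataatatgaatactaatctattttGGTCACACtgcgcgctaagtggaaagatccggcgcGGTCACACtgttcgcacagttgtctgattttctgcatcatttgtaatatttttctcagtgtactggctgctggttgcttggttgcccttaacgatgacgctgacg
hth, chr3R:10597665-10597865: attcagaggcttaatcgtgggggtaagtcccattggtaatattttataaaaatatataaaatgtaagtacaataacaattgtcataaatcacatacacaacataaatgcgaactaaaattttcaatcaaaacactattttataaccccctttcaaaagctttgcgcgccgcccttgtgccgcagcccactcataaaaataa
h, chr3L:8672623-8672823: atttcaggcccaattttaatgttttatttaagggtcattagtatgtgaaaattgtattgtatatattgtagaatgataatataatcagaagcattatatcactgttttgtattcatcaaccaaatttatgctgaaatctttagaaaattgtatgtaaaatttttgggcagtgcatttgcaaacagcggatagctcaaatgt
fkh, chr3R:28585407-28585607: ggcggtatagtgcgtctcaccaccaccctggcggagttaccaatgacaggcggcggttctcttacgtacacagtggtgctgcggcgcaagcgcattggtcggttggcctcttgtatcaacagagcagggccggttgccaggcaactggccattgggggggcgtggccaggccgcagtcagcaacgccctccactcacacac
nkd, chr3L:19045526-19045726: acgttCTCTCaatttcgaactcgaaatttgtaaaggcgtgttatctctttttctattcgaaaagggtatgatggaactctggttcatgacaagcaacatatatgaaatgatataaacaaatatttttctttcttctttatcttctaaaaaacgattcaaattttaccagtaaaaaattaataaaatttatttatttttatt
bcd, chr3R:6759624-6759824: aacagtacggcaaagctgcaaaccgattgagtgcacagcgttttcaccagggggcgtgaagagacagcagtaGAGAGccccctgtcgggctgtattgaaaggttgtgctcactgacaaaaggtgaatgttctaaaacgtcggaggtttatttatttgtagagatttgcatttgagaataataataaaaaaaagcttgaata

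The windows had little in common in their letters. The slp2 window held GGTCACAC at 2 positions, starting 39 bp and 4 bp before the summit, whereas the h, hth and fkh windows held none of the 7 words. The slp2 peak was the 1 peak of 1449 with 2 or more copies of that word, and 9 candidates of 143270 had as many. At least 1 copy was found in 1.17% of all main-list peaks and 0.435% of all candidates. The nkd and bcd windows each held GAGAG, a word found in 21.5% of main-list peaks and 23% of candidates. The Pax2/5/8 core was in none of the 5 main-list windows, and in 1.17% of all main-list peaks. A match is a description of the letters, and its absence says only that these letters are not in the window.

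Base composition varied widely among the sites. The GC content was 25.4% at nkd, 27.9% at h, 33.8% at hth, 40.8% at slp2 and 63.2% at fkh. The fkh window was thus the GC-rich one of the 5, and nkd and h were rich in A and T. The median of the 5, 33.8%, lay beside 34.8% over all main-list peaks and 46.3% over all candidates.

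Counted by the nearest TSS at any distance, 5 of 35 members (14.3%) had a main-list peak, beside 8.23% of all protein-coding genes. Counted within 500 bp of a TSS, 2 members (5.71%), fkh and nkd, had one, beside 7.72% of all genes. Counted by summits inside the gene, 1 member (2.86%), hth, had one, beside 5.08% of all genes. With counts of 1 and 2 genes, the shares at promoters and inside genes were near the background or below it, and the share by nearest TSS was above it. The median number of candidates nearest to a gene was 19 for members, against 4 over all protein-coding genes. The median length was 8419 bp against 2164.5 bp, with 30563 bp for Hox genes and 13738 bp for segment polarity genes, but 2567.5 bp for gap genes and 2439.5 bp for pair-rule genes. The part of gene length and candidate number in the nearest-TSS count was not tested. Of the 902 candidates nearest to a member, 5 were main-list peaks (0.554%), beside 1.01% of all candidates on the arms.

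**Figure D1:**
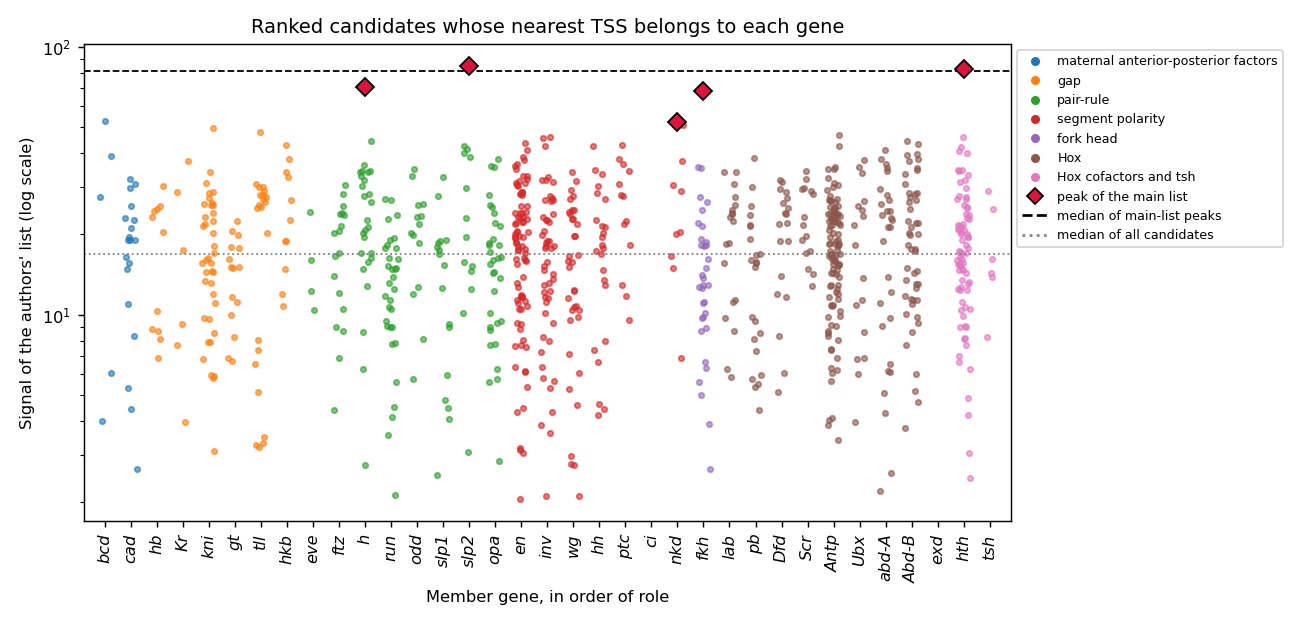
Signal in the pair's ranked list (log scale) of every candidate whose nearest TSS belongs to each member, in order of role, with main-list peaks as diamonds. The 5 peaks, at h, slp2, nkd, fkh and hth, range from 52.5 to 84.9, and ci and exd have no candidate.

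Among the pair-rule genes, slp2 and h had peaks and the other 6 had none. The slp2 peak (FBgn0004567) spanned 2L 3832383 to 3832686, and its summit, at 3832535, was 4305 bp from the slp2 TSS on the upstream side. It lay between the neighbouring forkhead genes slp1 and slp2, and its summit was 6860 bp from the slp1 TSS. Its signal of 84.9 ranked 694 of 1488. Thus the strongest member peak stood near the middle of the main list.

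The h peak lay 3036 bp upstream of the gene. The gene h (FBgn0001168) encodes the bHLH repressor Hairy, and the peak spanned 3L 8672571 to 8672874, with its summit at 8672723. Its signal of 70.6 ranked 931. The strongest candidate within 500 bp of an h TSS had a signal of 34.4 and a −log10 IDR of 0.845, under the threshold, so the peak and the promoter of h differed in their calls.

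The Hox cofactor hth had the one peak inside a member. The gene hth (FBgn0001235) encodes a TALE homeodomain protein that takes exd, the other cofactor, into the nucleus. Its peak spanned 3R 10597613 to 10597916, with the summit at 10597765 in an intron, 16511 bp downstream of the nearer of its 2 TSSs. The signal was 82.4, rank 729. The gene is 132008 bp long and held 147 candidate summits, of which this was the only main-list peak.

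Both promoter peaks were weaker. The gene fkh (FBgn0000659) encodes the forkhead factor of the terminal gut and the salivary glands. Its peak spanned 3R 28585355 to 28585658, with the summit at 28585507, 243 bp upstream of the TSS, and had a signal of 68.3, rank 984. The TSS of the noncoding gene lncRNA:CR43126 lay 541 bp from that summit. The gene nkd (FBgn0002945) encodes Naked cuticle, an antagonist of Wnt signalling. Its peak spanned 3L 19045474 to 19045777, with the summit at 19045626, 177 bp upstream of the TSS, and had a signal of 52.5, rank 1384. It was the 1 member peak below the highest score of 1000, at 872, whereas 70.8% of all main-list peaks on the arms had that score.

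The 2 promoter peaks of the members, with signals of 52.5 and 68.3, lay below the 3 distal ones, with 70.6, 82.4 and 84.9, and did not overlap them. Over all main-list peaks the order was the other way, with a median of 89.5 at promoters and 75.0 at distal positions. Placed among all peaks of the same position, fkh was above 28.3% and nkd above 5.36% of the 821 promoter peaks. The peaks at slp2, hth and h were above 61.5%, 58.9% and 44.4% of the 628 distal peaks. The distal member peaks were thus mid-ranked for their position and the promoter peaks low-ranked. All 5 peaks were 304 bp wide, the width of 1370 of the 1488 peaks.

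**Figure D2:**
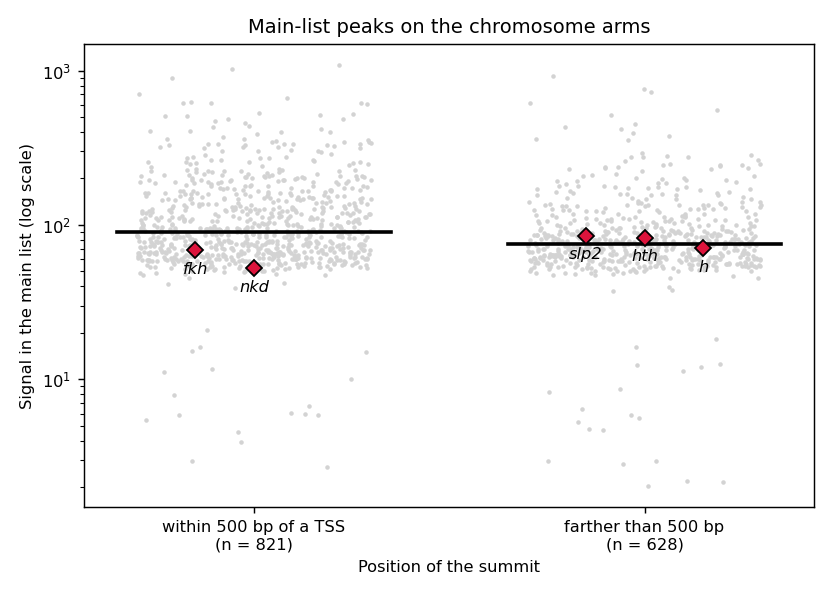
Signal (log scale) of all main-list peaks on the arms, split by whether the summit is within 500 bp of a TSS, with the medians as bars and the member peaks as labelled diamonds. fkh and nkd are below the promoter median of 89.5, and slp2 and hth are above the distal median of 75.0.

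The share of candidates that became peaks was below that of the arms at either position, on very few member peaks. Within 500 bp of a member TSS, 2 of 68 candidates (2.94%) were peaks, beside 4.12% of the 19911 promoter candidates of the arms. At distal positions, inside a member or nearest to it, 3 of 1204 (0.249%) were peaks, beside 0.509% of 123359. The candidates themselves had much the same signal as elsewhere, with medians of 19.2 against 18.3 at promoters and 17.7 against 16.7 at distal positions. These counts of 2 and 3 peaks are too small to place the shares closely.

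The 2 replicates did not give the same members. In the list of replicate 1, 0 of 35 members had a promoter peak, beside 4.37% of all genes, 1 had a summit inside (2.89% of all genes), and 3 of 35 (8.57%) were nearest to a peak, beside 4.63%. In the list of replicate 2, 3 members (8.57%), bcd, fkh and nkd, had a promoter peak, beside 6.17%. There, 1 had a summit inside (3.26% of all genes), and 4 (11.4%) were nearest to a peak, beside 5.69%. In the conservative list of the pair, 1 member, fkh, had a promoter peak, beside 7.14% of all genes, 1 had a summit inside, beside 4.63%, and 4 were nearest to a peak, beside 7.64%. The hth peak was in all 4 lists.

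The distal peaks of slp2 and h were in the list of replicate 1 and not in that of replicate 2. At slp2, the signal was 43.5 in replicate 1, above 99.4% of that ranked list, with a −log10 IDR of 2.22. In replicate 2 it was 35.5, above 98.8%, with a −log10 IDR of 1.73. At h, the signal was 44.7 in replicate 1, above 99.4%, with a −log10 IDR of 2.64. In replicate 2 it was 28.1, above 97.9%, with 1.51. Both loci were thus near the top of both ranked lists, and fell short in replicate 2 by the IDR. Replicate 1 also listed another peak at slp2, at 2L 3832537 to 3832816, with a signal of only 2.58.

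The promoter peaks of fkh and nkd went the opposite way. At fkh, the signal was 26.2 in replicate 1, above 97.4% of candidates, with a −log10 IDR of 0.417, and 40.1 in replicate 2, above 99.0%, with 2.35. At nkd, it was 17.9 in replicate 1, above 85.5% of candidates, with a −log10 IDR of 0.0518, and 45.1 in replicate 2, above 99.2%, with 2.66. At bcd, it was 13.9 in replicate 1, above 67.7%, and 38.4 in replicate 2, above 99.0%, with −log10 IDR values of 0.0211 and 2.07. None of these 3 promoter sites was in the list of replicate 1, and the nkd summit there lay 192 bp from that of the main list. The bcd site was taken up because of its peak in replicate 2 alone, so its contrast follows from that choice. The contrast at main-list promoter peaks thus rests on fkh and nkd. The bcd peak (FBgn0000166) of replicate 2 spanned 3R 6759576 to 6759871, and its summit was 258 bp from the TSS on the upstream side.

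At hth the replicates ranked the site alike, above 99.2% and 99.3% of their lists, with signals of 40.1 and 46.0 and −log10 IDR values of 2.01 and 2.18. The 5 main-list loci therefore had 1 in both replicate lists, 2 in that of replicate 1 alone, 2 in that of replicate 2 alone, and 0 were absent from both. Over all 1449 main-list peaks on the arms, 574 (39.6%) overlapped a peak of both lists and 391 (27%) a peak of neither. The list of replicate 1 alone held 169 of them, and that of replicate 2 alone held 315. These counts are not split into promoter and distal peaks, so the contrast at the members has no such background beside it.

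**Figure D3:**
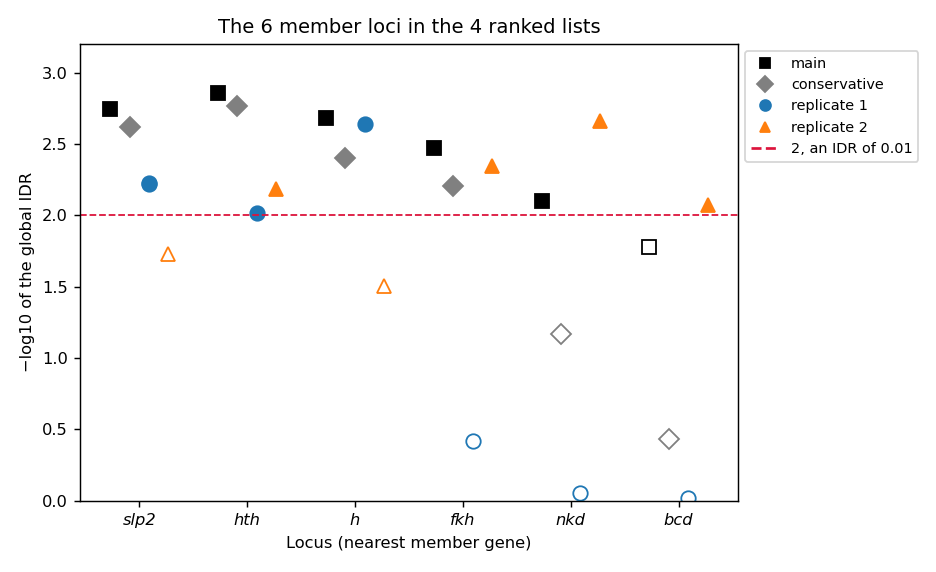
The −log10 global IDR of the 6 member loci in the 4 ranked lists, filled where the site is in the thresholded list, with the dashed line at 2. slp2 and h are over the line in replicate 1 and under it in replicate 2, fkh and nkd are the reverse, and hth is over it in all 4 lists. The bcd locus, included because of its peak in replicate 2, is over the line in that list alone.

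None of the 8 Hox genes had a peak in the main list, where 8.23% of all protein-coding genes had one by nearest TSS. The span of the Antennapedia complex from lab to Antp, 3R 6661427 to 6999228, held 411 candidates and 0 peaks. If candidates are taken as independent, this count allows a share of up to 0.73%. The arm 3R as a whole had 300 peaks of 36682 candidates (0.818%), a density that would put 3.16 peaks in a span of this length. The bithorax complex from Ubx to Abd-B, 3R 16656623 to 16972236, held 404 candidates and 0 peaks. That allows up to 0.743% in the same way, and the arm's density would give 2.95. In the list of replicate 1, the limits of 1% and 1.02% lay above the arm's share of 0.627%. In that of replicate 2, the bithorax limit of 1.04% lay above 0.77%. In the conservative list the limits were 0.726% and 0.75%, beside an arm share of 0.75%. The arm's share pools promoter and distal candidates, of which 4.12% and 0.509% were main-list peaks over all arms. The spans were not split by position, so the counts of 0 do not place them below the arm. Candidates were not sparse there: the Antennapedia and bithorax spans had 121.7 and 128.0 per 100 kb, against 114.3 on the arm. The peak at bcd, which lies inside the Antennapedia span, was the only peak of either span in any of the 4 lists.

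No Hox candidate passed the threshold, and a site in Antp came nearest to it. The site, inside Antp at 3R 6912403 to 6912706, lay 20285 bp from the nearest of the gene's 3 TSSs. It had a signal of 55.1 and a −log10 IDR of 1.87, the highest of both values among member candidates outside the main list. In the conservative ranked list the same site had a −log10 IDR of 0.452. Its summit also lay within CG46458, and the nearest TSS was that of lncRNA:CR43252. Abd-B, the Hox gene of the posterior abdomen, had a candidate of 48.5 inside the gene with a −log10 IDR of 0.875, and another of 44.5 with 1.66. Inside Scr, which specifies the labial and first thoracic segments, the highest signal was 45.5, with a −log10 IDR of 1.22. Inside Ubx, which specifies the haltere segment, it was 44.9, with 0.978. In the pair's ranked list the promoter of Ubx held 1 candidate, of signal 6.86, above 12.6% of candidates, the lowest there among members with a promoter candidate. It had none in replicate 1, and in replicate 2 its candidate was above 35.8%, where the promoter of run was lower, at 8.85%. The best promoter candidate of Abd-B, with 37.4, was above 95.3%.

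The gap genes had candidates of moderate signal. The best promoter candidate had a signal of 30.3 at hb and 27.0 at tll, an orphan nuclear receptor gene of the embryo's termini. It was 19.9 at gt, 18.9 at hkb and 14.6 at kni, and there was none at Kr. The strongest gap-gene sites were away from promoters: 49.6 at 5629 bp upstream of kni, with a −log10 IDR of 0.273, and 48.0 inside tll, 708 bp from its TSS, with 1.62. The kni site was thus strong in signal and weak in IDR.

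Among the remaining pair-rule genes, promoter signals varied in the pair's ranked list. The best promoter candidate was 9.02 at run, which encodes the founding Runt-domain protein, 8.97 at slp1, 18.1 at opa, 20.5 at ftz and 25.7 at odd. The eve gene, which encodes a homeodomain repressor, had no promoter candidate in the pair's ranked list, and its strongest nearest candidate was 24.2. The median percentile of the best promoter candidate was 59.9 over the 7 pair-rule genes that had one in the pair's list, the lowest of the roles there. It was 61.5 for gap genes, 69.6 for segment polarity genes, 71.9 for the cofactor group, 86.8 for Hox genes and 93.9 for the 2 maternal factors, and fkh stood at 99.3. The order depended on the list: pair-rule genes had 49.8 in replicate 1 and 40.0 in replicate 2, and segment polarity genes had 85.5 and 38.6, so that in replicate 2 the latter were lowest.

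Among segment polarity genes, ptc, the Hedgehog receptor gene, had a candidate of 52.6 at 1935 bp inside the gene, with a −log10 IDR of 0.767. The homeodomain genes en and inv, which lie side by side, reached 43.5 and 46.0, and the inv site, 5577 bp upstream, had a −log10 IDR of 1.44. The Hedgehog ligand gene hh reached 42.7 and the Wnt ligand gene wg 34.1. At nkd, another candidate 747 bp upstream had a signal of 51.0 and a −log10 IDR of 1.81, so the peak at the promoter had a neighbour just under the threshold. The lowest signal of a member peak was 52.5, and the highest outside the list was 55.1, so the lists were not cut by signal alone.

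Of the other members, cad, the homeodomain gene of the posterior gradient, had its best promoter candidate at 30.8 with a −log10 IDR of 0.419. The maternal gene bcd had 52.7 in the pair's ranked list with a −log10 IDR of 1.78. The trunk zinc-finger gene tsh had 24.8 at its promoter and 38.2 inside the gene. No candidate was nearest to, inside or within 500 bp of ci, the gene of the Hedgehog pathway's zinc-finger effector, or exd, in any of the 4 ranked lists as used here. Whether these lists cover both loci in full is not known, so the 0 is no measure of binding there. In the pair's list the closest candidates lay 10824 bp and 86503 bp to either side of ci, on chromosome 4, where the list held 132 candidates in all. They lay 6132 bp and 9775 bp to either side of exd.

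Among genes with a promoter candidate, members ranked near all genes in the pair's list and in replicate 1, and lower in replicate 2. The median percentile of the best promoter candidate was 76.8 over the 31 members with one, against 75.7 over 10822 protein-coding genes. It was 71.4 against 71.5 in replicate 1 and 65.5 against 73.5 in replicate 2. The best candidate by nearest TSS had a median percentile of 95.9 against 89.7, where the best of more candidates per gene is taken for the members.

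Most members lay far from any peak. The median distance from a member TSS to the nearest main-list summit, whatever gene it belongs to, was 65078 bp, against 24232 bp over all protein-coding genes. Of the 35 members, 20 (57.1%) were over 50 kb away, against 30% of all genes. These distances are not independent, because members that lie together share a nearest peak. It was the peak at Pif2 for lab, pb, bcd and Dfd, and the peak at CG1105 for Scr, ftz and Antp. For Ubx, abd-A and Abd-B it was the peak at CG18622. Hox genes had the largest role median, 176414 bp, and Abd-B was their exception at 14409 bp, where the peak was nearest to CG18622. Pair-rule genes had a median of 22566 bp, with run, at 348364 bp, as their farthest. The most distant member was ci, 367809 bp from a peak.

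**Figure D4:**
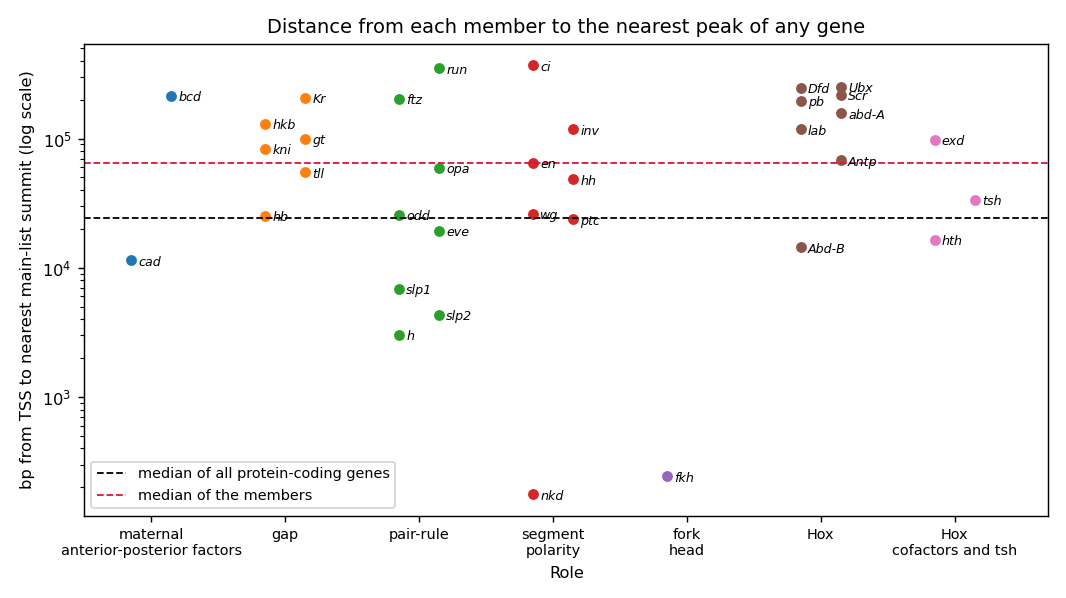
Distance in bp (log scale) from each member's TSS to the nearest main-list summit of any gene, by role, with the medians of members (65078 bp) and of all protein-coding genes (24232 bp) as dashed lines. fkh and nkd are under 500 bp, and 7 of the 8 Hox genes are above the members' median.

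Other genes of the same pathways came from a list of 54 names, of which 53 were matched. Among them, gro, sgg, pum, cic and arr had peaks with higher signals than any member peak. The arr peak lay inside the gene but was nearest to the TSS of CG43192. A main-list summit lay within 500 bp of a TSS in 5 of 53 (9.43%), a share near the 7.72% of all genes. The corepressor gene gro, whose product Hairy recruits, had a signal of 203 at 139 bp upstream of a TSS, and the Wnt pathway kinase gene sgg had 190 at 237 bp upstream. Both peaks were in the lists of both replicates. The cap'n'collar gene cnc had 78.4, and Wnt6, a ligand gene beside wg, had 68.9 at 294 bp upstream. The Hedgehog-transport gene ttv had 65.9 at 141 bp. The cnc peak was in the list of replicate 2 only, and the peaks of Wnt6 and ttv were in neither replicate's list. By nearest TSS the count was 7 of 53 (13.2%), beside 8.23% of all genes, with pum and cic, genes of the maternal and terminal systems, added at 96.1 and 92.3. Inside genes it was 8 of 53 (15.1%), beside 5.08%, with arr and fz, which encode a Wnt co-receptor and a Wnt receptor, among them. The length of these genes was not compared with that of others.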

How the data were processed

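Peak lists on dm6 from 2 biological replicates were used: the thresholded and ranked lists of the pair, a conservative version of both, and those of each replicate. The authors' signal, score (0 to 1000) and −log10 global IDR are as deposited; the sources used here give no normalisation of the signal, aligner, peak caller or read depth, and the precision that depth gives is unknown. Signal and score served only to rank or describe peaks within a list, and sites were followed across lists by percentile and IDR.

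Summits were taken from the deposited summit offset. With Python 3.11.15 and Ensembl 115 genes on the arms, each summit was assigned to TSSs within 500 bp, to gene bodies, and to the nearest TSS of 18277 gene models. GC content and words were read over 100 bp to either side of summits. The members and lists were chosen with earlier results of these data known. Members with a peak are named with all values and the rest by their strongest candidates, and genes of the second list where they had a peak. In that list the name nos matched more than 1 gene and was left out. Distances to the nearest peak, candidates per gene and word repeats were added after the data were seen. With 1 group and no control group, no test between samples or of the gene list was made. Counts stand beside the share of all protein-coding genes. The limits given for counts of 0 divide 3, taken as the highest count that a 0 allows, by the number of candidates. They treat candidates as independent and are a description only. The 2 replicates say nothing of spread beyond these samples. The assignment of summits to genes was tested on positions planted at known places of sampled genes. Alternatives were the other lists, a stricter IDR, the stronger peaks, other windows, whole intervals and other backgrounds.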

Additional observations from a re-analysis of the deposited data

How the results depend on the processing

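Under the alternatives 24 values kept within the limits set and 12 moved. The count of members with a promoter peak, 2, was 1 in the conservative list, 1 among peaks at the highest score, 0 at a −log10 IDR of at least 3 and 0 among the peaks above the list's median signal. Leaving out either replicate gave 0 to 3. The count with a summit inside, 1, became 0 at the stricter IDR, and stayed at 1 without either replicate. The nearest-TSS count, 5, became 0 at the stricter IDR and 2 among the peaks above the median, and was 3 to 4 without either replicate. The distal peaks, 3, were 1 to 4 without either replicate. The 4, from the list of replicate 1, counted 2 overlapping peaks at slp2. The count of words present in the windows of main-list member peaks, each word counted once per window, was 2. It was 1 in windows of 50 bp to either side. The count of peaks in the Hox complexes, 0, was 0 to 1 without either replicate, the 1 being at bcd. The cause was not tested. TSS windows of 250 and 1000 bp, whole intervals and protein-coding TSSs alone changed no count. No paired analysis was possible because there is 1 group. The limits are the unknown depth, counts of 5 or fewer, and 2 samples.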
